A study of Gallus gallus with 2 samples.

Results

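The genes described here are those of T cells and natural killer (NK) cells, measured in the ileum of chickens fed corn or paddy rice. They were chosen by name from a list of 42 genes of the T cell receptor, its signalling chain, and the receptors and products of T and NK cells. Chicken probe sets that the array's annotation gives to 1 gene were searched for these names and their older aliases, and each gene was read on its probe set of highest mean log2 signal, called its brightest. Of the 42 names, 32 had a probe set. They led to 33 genes with 51 probe sets, out of 13008 named genes in all. The CCL4 name led to a pair of genes, CCL4 itself and LOC395551, which carries CCL4 as an alias, and FYB was found under its current symbol FYB1. CD6, CD96, CD69, KLRB1, SH2D1A, CORO1A, TCF7, RUNX3, GZMM and CCL5 had no probe set that the annotation used gives to that gene alone.

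Male White Leghorn chicks of a commercial layer strain were used, and all of them first ate a semi-purified diet of soybean protein and corn starch. Both groups (9 birds each in the labels) ate a diet with 650 g/kg of grain for 2 wk from 1 wk of age, corn in the control group and paddy rice in the other, and their ilea were taken at 3 wk of age. Both diets held soybean protein and soybean oil, and according to the methods crude protein and energy were not matched between them. RNA of 3 birds per diet, which the authors chose for a MUC2 level near the group average, was pooled for 1 array per diet. Without replicate arrays the differences were not tested, and each ratio compares a pair of pools.

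T cells recognise antigen with a receptor whose chains sit in the membrane beside the CD3 subunits and the zeta chain CD247. The tails of these subunits are phosphorylated by the kinase LCK, the kinase ZAP70 docks there, and adaptor proteins pass the signal on. NK cells lack this receptor but share the zeta chain, adhesion molecules, granzymes and chemokines with cytotoxic T cells. In the gut, lymphocytes with CD8 lie mainly between epithelial cells and those with CD4 mainly in the lamina propria below them, and T cells help B cells switch to and secrete IgA.

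The values are MAS5 signals, which condense the short probes of a probe set to 1 number on a linear scale. A probe set marked as shared in its name can also match other transcripts. Signals of different probe sets cannot be compared with each other, so each gene was compared with itself between diets. The 95th percentile of 689 probe sets not marked as chicken, 44.1 with corn and 45.1 with paddy rice, was taken as background, and 38.2 when the mean of both arrays was used. Over all genes the ratio of paddy rice to corn had a median log2 of -0.0029, and its spread grew as signals fell. For genes from the 75th percentile of signal (522) upwards the central 90% of genes lay between ratios of 0.824 and 1.23, from the median signal (111) to that percentile between 0.683 and 1.45, and from background to the median between 0.462 and 2.12. Probe sets of the same gene had log2 ratios with an SD of 0.16, 0.35 and 0.69 in these ranges.

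As a group, the T and NK cell genes lay on both sides of a ratio of 1, with their median close to it. The median log2 ratio of the 33 genes was -0.023 (ratio 0.984), and 19 genes were below 1 and 14 above it. IL2RA and CTLA4 were above 1.5, IFNG was below 0.67, and the 30 others lay between these thresholds, which the paper used. Over all named genes, with no filter on signal, 8.27% were above 1.5 and 8.57% below 0.67. The paper counted far fewer genes past these thresholds over the whole array, and its methods name no further filter, so these shares are not those of the paper. Of the 31 members with a mean signal at or above background, 2 were above 1.5 and 0 below 0.67, where 4.50% and 4.63% of all genes were. The 2 were IL2RA and CTLA4, whose corn signals were below the background of that array, so that they passed through their paddy rice signals. Of the 22 members at or above the median signal none was past a threshold in either direction, where 1.87% of all genes were above 1.5 and 1.71% below 0.67. Log2 ratios above 0.3 were found for 6 of the 31 and log2 ratios below -0.3 for 8, where 12.8% and 13.3% of all genes had them. Of these 31, 9 had mean signals between background and the median, where ratios spread widely, as had 2067 of the 11307 genes at or above background. At or above the median signal, log2 ratios were above 0.3 for 3 of 22 members and below -0.3 for 4. Of the 9240 genes at such signals, 821 were above 0.3 and 857 below -0.3. Ratios below 1 were found for 17 of the 31, against 50.3% of all genes. In bulk tissue, fewer cells of a type and less RNA per cell cannot be told apart.

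**Figure D1:**
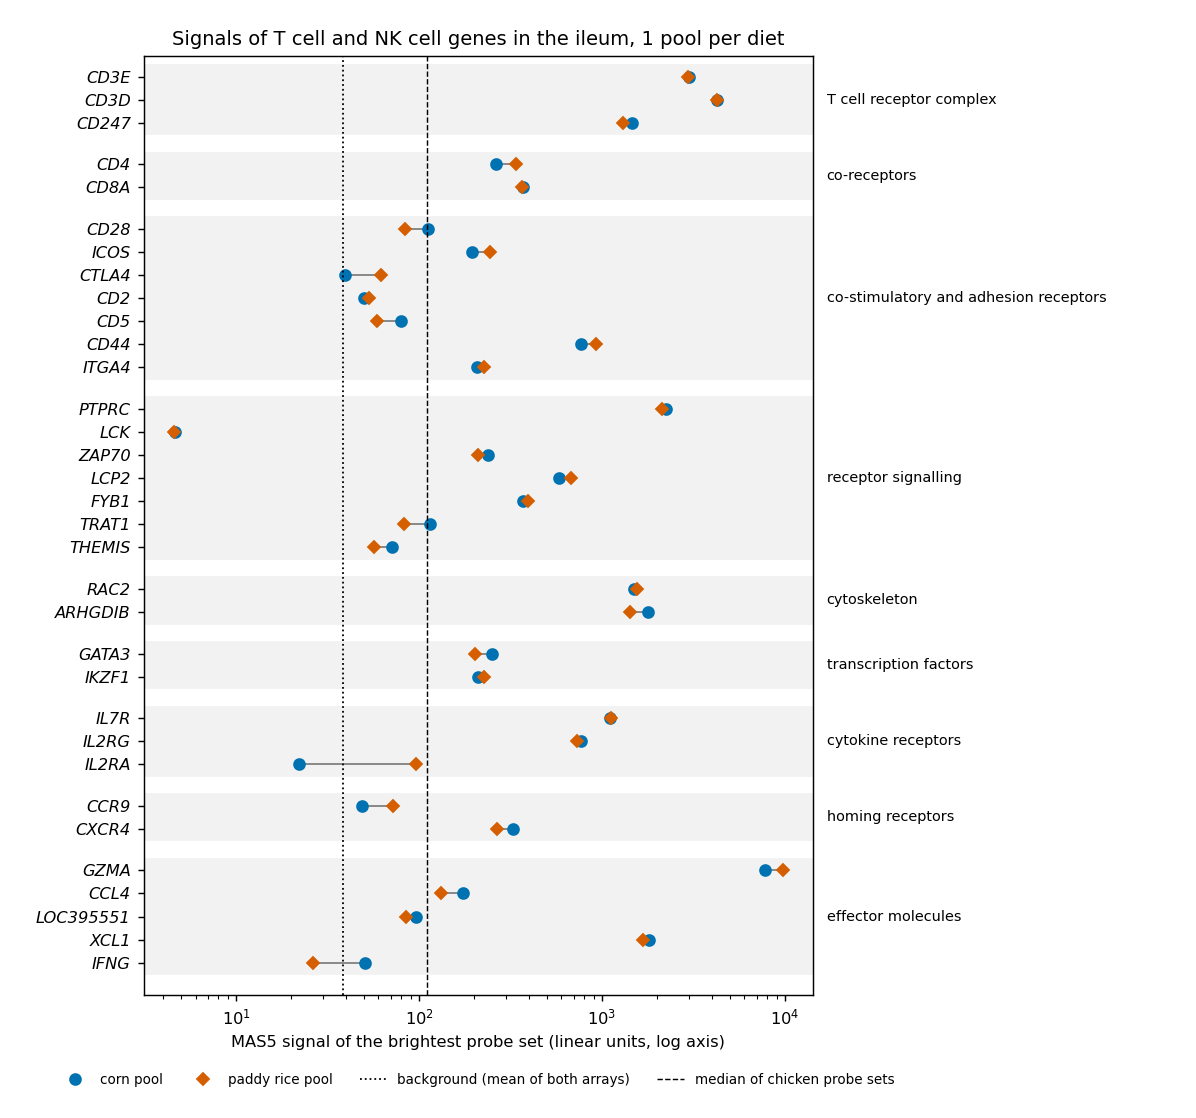
Signals of the brightest probe set of each of the 33 genes on the corn (blue circles) and paddy rice (orange diamonds) arrays, on a log axis and grouped by role. The points of a gene lie close together for most genes, and the widest gaps are those of IL2RA and IFNG, each of which has 1 point below background.

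The subunits of the T cell receptor complex had ratios close to 1. CD3E measured 3000.2 with corn and 2953 with paddy rice (ratio 0.984). CD3D, the neighbouring gene of CD3E in the RefSeq table, went from 4266 to 4230.4 (ratio 0.992). Both lay within the spread between probe sets of a gene at such signals. The zeta chain gene CD247 was at 1460.4 and 1305 (ratio 0.894), with a log2 ratio of -0.16 at the edge of that spread.

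The co-receptors bind the MHC molecule that presents the antigen, CD4 that of class II and CD8 that of class I. CD4 measured 262 with corn and 338 with paddy rice (ratio 1.29). CD8A went from 371 to 364 on the brightest (ratio 0.981), and from 168 to 160.5 on the other (ratio 0.954). The single probe set of CD4 was thus higher on paddy rice by slightly more than the spread between probe sets (log2 ratio 0.37, SD 0.35), and remained within the central 90% of genes of like signal.

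CD28, CTLA4 and ICOS stand side by side in the genome and bind the B7 family of ligands, CD28 and ICOS as stimulators of T cells and CTLA4 as an inhibitor. CD28 was lower on paddy rice, at 111 with corn and 83.9 with paddy rice (ratio 0.753). ICOS was higher, at 195 and 244 (ratio 1.254). CTLA4 measured 39.4 with corn, which was below background, and 61.6 with paddy rice. Its ratio of 1.56 therefore rests on a corn signal that is only a bound. The paddy rice signal of CTLA4 was 1.40-fold the background level of the corn array. That fold holds no error of the signal, so it is no lower limit of the difference. The neighbours thus lay on either side of 1, and all ratios of the trio were within the central 90% of genes of like signal.

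Among the other surface receptors, CD5, an inhibitor of receptor signalling, was at 79.6 with corn and 58.6 with paddy rice (ratio 0.736). CD2, which binds T cells to other cells, was at 49.8 and 53.2, close to background on both arrays (ratio 1.07). CD44, the hyaluronan receptor of activated and memory T cells and of many other cells, measured 771 with corn and 925 with paddy rice (ratio 1.20). All 4 probe sets of CD44 were above 1, between 1.06 and 1.22, and its brightest lay beyond the spread between probe sets of 0.16 with a log2 ratio of 0.26. ITGA4, the integrin chain that pairs with beta 7 for homing to the gut, went from 209 to 226 (ratio 1.08). The other probe sets of ITGA4 were below background and had ratios of 0.365 and 1.85.

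Of the signalling genes, LCP2 had the highest ratio and TRAT1 the lowest. PTPRC encodes CD45, the phosphatase of all white blood cells, and went from 2227 to 2134 (ratio 0.958). The other probe sets of PTPRC had ratios of 1.01 and 0.762, the latter at signals of 54.3 and 41.4. ZAP70 was at 237 with corn and 210.0 with paddy rice (ratio 0.885). Neither PTPRC nor ZAP70 lay beyond the spread between probe sets at its signal. LCP2 encodes the adaptor SLP-76 and went from 582 to 676 (ratio 1.16), beyond the spread between probe sets. FYB1 encodes the adaptor ADAP, which binds SLP-76, and had 368 and 394 on the brightest (ratio 1.07), with 0.880 and 0.927 on the other probe sets above background. TRAT1, an adaptor that sits with the receptor, was at 114 and 82.6 (ratio 0.721). THEMIS, needed for the selection of thymocytes in mice, was at 70.9 and 56.8 (ratio 0.801). The mean signals of TRAT1 and THEMIS over both arrays were below the median, where probe sets of a gene differed by more than this.

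LCK was not read above background on either array. Its probe set measured 4.64 with corn and 4.57 with paddy rice, far below background on both arrays, while CD3E, CD3D, CD247 and ZAP70 were above background on both. The gene has no other probe set, and this one is marked as shared between transcripts, and with both signals below background no level of LCK was measured.

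Of the cytoskeletal regulators, ARHGDIB was lower on paddy rice. ARHGDIB, a gene expressed mainly in blood cells, measured 1791 with corn and 1429.7 with paddy rice (ratio 0.798). Its log2 ratio of -0.32 lay outside the central 90% of genes of like signal, on a single probe set marked as shared. RAC2, which acts in the movement of blood cells, went from 1506 to 1562 (ratio 1.04).

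GATA3, which drives the T helper type 2 programme and is also made by other cells, was at 249.8 with corn and 201 with paddy rice (ratio 0.805). IKZF1 (Ikaros), a regulator of all lymphocytes, was at 210.0 and 227 on the brightest (ratio 1.08), and at 169 and 145 on the other (ratio 0.858). The probe sets of IKZF1 thus lay on either side of 1.

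Of the cytokine receptor genes among the members, IL7R and IL2RG had ratios close to 1 and IL2RA was higher on paddy rice. IL7R, the receptor for the survival factor interleukin 7, was at 1109 with corn and 1114 with paddy rice (ratio 1.00), and at 0.866 and 0.946 on the other probe sets above background. IL2RG, the common gamma chain, was at 764 and 731 (ratio 0.957). IL2RA, the high-affinity chain of the interleukin 2 receptor found on activated and regulatory T cells, measured 22.1 with corn, below background, and 96.7 with paddy rice. Its ratio of 4.38 was the highest of the members and lay outside the central 90% of genes from background to the median. IL2RA came into that range only through its paddy rice signal, which also sets the ratio. Its mean signal of 46.2 was close to the background of 38.2, below which the central 90% ran from 0.128 to 6.95. Since the corn signal is only a bound, the paddy rice signal was also set against the background level of the corn array, and was 2.19-fold that level. This fold holds no error of the signal. IL2RA has 1 probe set, so no second reading of this difference exists on the arrays.

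The homing receptors lay on either side of 1. CCR9, the chemokine receptor of gut-homing lymphocytes, was at 48.5 with corn and 71.6 with paddy rice (ratio 1.48). The other probe set of CCR9 was below background, at 24.2 and 2.35. CXCR4, the receptor for CXCL12 on many white blood cells, was at 328 and 266 (ratio 0.810).

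Among the effector molecules, granzyme A was higher on paddy rice and CCL4 lower. The other chemokine genes, XCL1 and LOC395551, had ratios below 1 that were within the spread between probe sets at their signals. GZMA, a protease of cytotoxic granules, measured 7788 with corn and 9747 with paddy rice (ratio 1.252). Its log2 ratio of 0.32 was 1 of the 3 member values outside the central 90% of genes of like signal, with those of ARHGDIB and IL2RA. IL2RA was placed in its range by the paddy rice signal that also sets its ratio. The central 90% leaves out the remaining genes of each range by definition, so 3 of 33 members is close to the share over all genes. XCL1 (lymphotactin), which attracts cross-presenting dendritic cells, was at 1802 and 1668 (ratio 0.925). CCL4, a chemokine of activated T cells and macrophages, went from 173 to 132 on the brightest (ratio 0.762), and from 103 to 68.1 on the other (ratio 0.664). Its neighbour LOC395551 was at 95.8 and 84.3 (ratio 0.881). IFNG, the cytokine of activated NK and T helper type 1 cells, measured 50.9 with corn and 26.4 with paddy rice (ratio 0.520). The paddy rice signal was below background, and the corn signal of IFNG was 1.13-fold the background level of the paddy rice array. The second IFNG probe set was below background on both arrays, with 42.7 and 7.84.

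**Figure D2:**
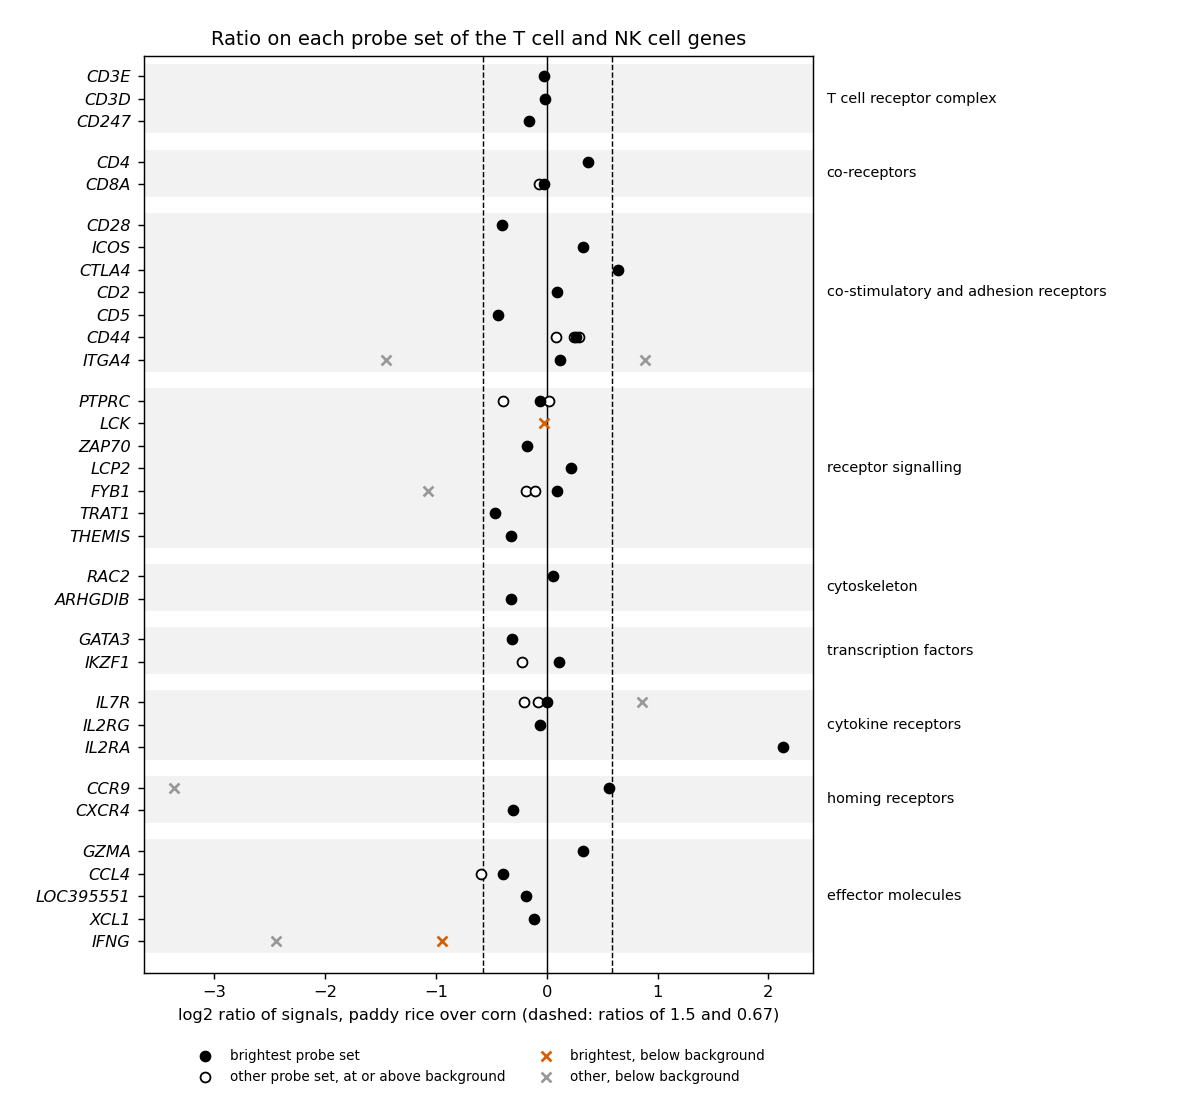
Log2 ratio of paddy rice over corn on each of the 51 probe sets, with filled circles for the brightest probe set of a gene, open circles for others at or above background and crosses for those below it. Of the 7 genes with several probe sets above background, 3 (CD8A, CD44 and CCL4) had all of them on the same side of 1, and the crosses spread widest.

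Of the 33 genes, 29 were above background on both arrays, and the 4 others were CTLA4, IL2RA, LCK and IFNG. Among the 29, 17 had log2 ratios between -0.3 and 0.3, and none was past 1.5 or 0.67, where 3.24% and 3.01% of all genes under the same filter were. The 4 genes above 0.3 were CD4, ICOS, CCR9 and GZMA. The 8 genes below -0.3 were CD28, CD5, TRAT1, THEMIS, ARHGDIB, GATA3, CXCR4 and CCL4. Of these 8, CD28, CD5, TRAT1 and THEMIS had mean signals over both arrays below the median. Of all genes above background on both arrays, 11.5% were above 0.3 and another 11.5% below -0.3. The log2 ratio was larger than the SD between probe sets of the same gene for 8 of the 33 genes, which were CD247, CD4, CD44, LCP2, ARHGDIB, IL2RA, GZMA and CCL4, against 29.0% of all named genes. This SD holds the error of probes within the same pools, not the spread between birds. For IL2RA the SD is that of a range it entered only through its paddy rice signal.

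**Figure D3:**
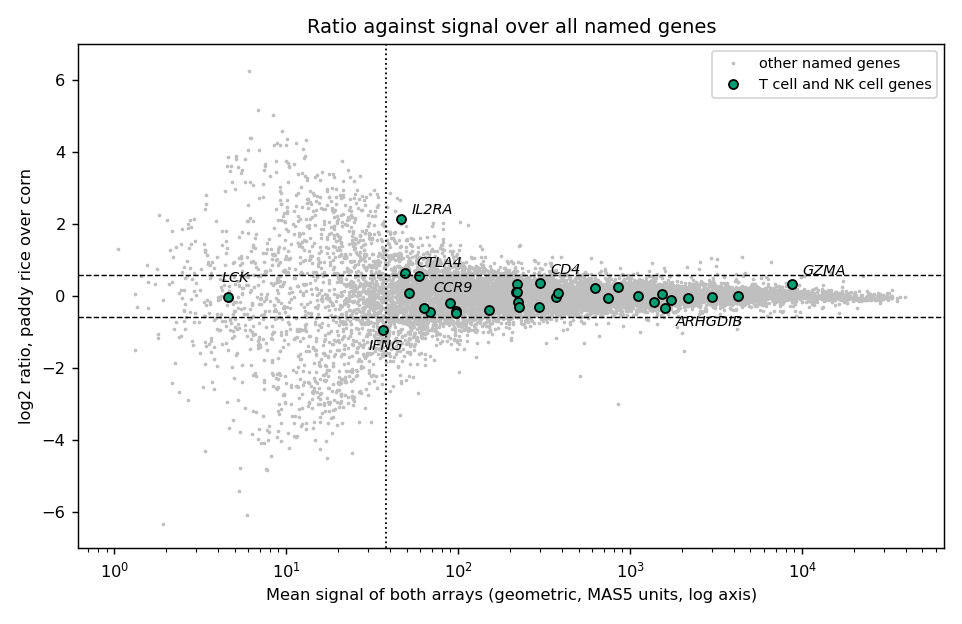
Log2 ratio against the mean signal of both arrays for 13008 named genes (grey) and the 33 T and NK cell genes (green), with the thresholds of 1.5 and 0.67 dashed and background dotted. The scatter narrows as the signal grows, and IL2RA lies at the upper edge at a mean signal of 46.2.

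Other genes of T cell biology, taken from 6 lists, also had a median close to 1. Of them FYN, IL15 and GNLY are given for their roles, and VCAM1 and CCL20 had the highest ratios of the homing genes at or above background. All were picked after their values were seen. Of 86 such genes at or above background, 4 were above 1.5, 3 below 0.67 and 49 below 1. Over all genes at or above background these shares were 4.50%, 4.63% and 50.3%. The median log2 ratio of the 86 genes was -0.029, beside -0.0019 for all genes at or above background. In the signalling list none of 18 was past a threshold on its brightest probe set. Of the other probe sets of these genes above background, some were below 0.67, down to 0.0856 for PLCG1, and none was above 1.5. The kinase gene FYN, a relative of LCK, went from 2616 to 2556 (ratio 0.977). In the list of cytokines and their receptors, IL21R, the receptor for a T helper cytokine that acts on B cells, went from 88.3 to 151 (ratio 1.71), and IL4R, the interleukin 4 receptor, from 385 to 256 (ratio 0.664). The 3 probe sets of IL4R above background ran from 0.664 to 1.11. IL21R and IL4R were the only genes of the 6 lists past a threshold at or above the median signal. The corn signal of IL21R was below that median, so it passed this filter through the paddy rice signal that also sets its ratio. IL21R was read on 1 probe set above background. Below the median signal, CD86 (ratio 1.73), IL12RB2 (1.97) and IL4 (1.66) were above 1.5, and SATB1 (0.551) and STX11 (0.435) below 0.67. These were named after their values were seen. The paddy rice signal of STX11 (34.2) was below background, and that of SATB1 (45.7) was close to it. The corn signals of IL4 (47.7) and IL12RB2 (50.8) were also close to background. IL15, a growth factor of intraepithelial T cells and NK cells, was at 6476 and 7098 (ratio 1.10). In the list of cytotoxic granules, GNLY, the chicken homologue of granulysin and NK-lysin, was at 14798 and 14556 (ratio 0.984), while the GZMA ratio was 1.252. Among 10 homing genes at or above background 7 were above 1 and 3 below it, where 50.3% of all genes were below 1. The median log2 ratio of these homing genes was 0.15. The highest were the adhesion molecule gene VCAM1, the ligand of ITGA4, with 422 and 595 (ratio 1.41), and CCL20, the ligand of CCR6, with 781 and 1090.3 (ratio 1.40). The 3 homing genes below 1 were S1PR1 (ratio 0.771), ITGB1 (0.973) and ITGB2 (0.967). The ratio of CCL20 lay outside the central 90% of genes of like signal, and that of VCAM1 within it.

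The defining markers of the cells were checked on both arrays. Of the 8 T cell markers, CD3E, CD3D, CD247, CD28, CD5 and ZAP70 were above background on both, LCK was below it and CD6 had no probe set. Of 5 markers of NK or cytotoxic cells, GZMA and XCL1 were above background and the others had no probe set. Both are also made by T cells, so these markers do not read NK cells apart from T cells. On their brightest probe sets, the ileal markers FABP6, SLC10A2, FABP2, VIL1, CDX1 and EPCAM had signals above 3000 on both arrays and ratios between 0.952 and 1.12. The 3 probe sets of FABP6 above background ran from 0.733 to 1.80, and the 3 of EPCAM from 0.965 to 1.16.

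Over all genes at or above background, 4.50% had ratios above 1.5 and 4.63% below 0.67. Lists of other cells stood beside the T and NK cell genes as follows. The immunoglobulin genes of plasma cells had far lower ratios, with JCHAIN at 2404 with corn and 303 with paddy rice (ratio 0.126), and IGLL1 at 1103 and 235 (ratio 0.213) on a shared probe set. The 6 probe sets of IGLL1 above background ran from 0.0999 to 1.19. Of 7 genes of the plasma cell list, these 2 were below 0.67 and the median log2 ratio was -0.30. The summed signal of that list was 16700 with corn and 13103 with paddy rice, against 30357 and 31757 for the 33 T and NK cell genes, sums in which bright probe sets weigh most. Without GZMA the latter sums were 22569 and 22011, so that GZMA alone set their direction. In the plasma cell sums, XBP1 alone held 9303 with corn and 9085 with paddy rice. Since signals of different probe sets cannot be compared, none of these sums is a level of its list. Of 13 B cell genes, 3 (IKZF3 at 0.656, CD79B at 0.667 and BANK1 at 0.625) were below 0.67 and none above 1.5, with a median log2 ratio of -0.21. CD79B and BANK1 had mean signals below the median, where ratios spread widely, and the paddy rice signal of BANK1 was below background. The other probe set of IKZF3 had a ratio of 1.37. Of 14 macrophage and dendritic cell genes at or above background none was past a threshold, and their median was -0.021, close to the -0.023 of the T and NK cell genes. Of 12 genes on a mixed list of leukocyte genes, 1 (NCF4) was above 1.5, none was below 0.67, and the median was 0.14. The medians of epithelium and smooth muscle were -0.052 and -0.0041. Of 11 endothelial genes, PECAM1 and TIE1 were below 0.67 and ESAM above 1.5, with a median of -0.15. The part of cell numbers in any of these values was not tested.

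**Figure D4:**
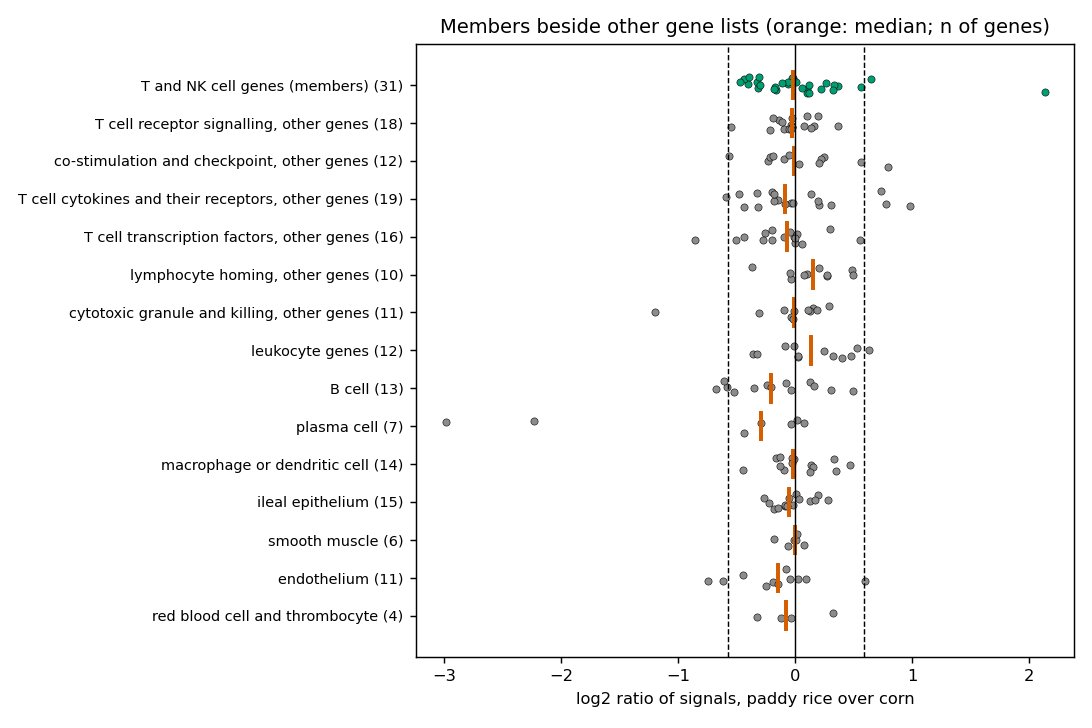
Log2 ratios of paddy rice over corn for the T and NK cell genes (green, 31 at or above background) and for 14 other gene lists (grey), 1 point per gene, with the median of each list in orange and the number of genes in brackets. The medians of most lists lie near 0, and the lowest values are those of JCHAIN and IGLL1 in the plasma cell list.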

How the data were processed

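RNA of 3 birds per diet was pooled and hybridised by the authors to the GeneChip Chicken Genome Array. The deposited values are signal intensities on a linear scale, which the authors computed with the MAS5 algorithm and scaled to a mean of 500.1 on both arrays after trimming 2% at each end. No log, filter or detection call was in the table. The number of arrays limits the precision. Probe sets were named from the platform annotation of 2016, in which 27166 of 37693 chicken probe sets had 1 gene, 177 had several and 10350 had none, and symbols of 26851 were updated with the RefSeq table of assembly GRCg7b, used for names and gene order only. The genes, the lists and the background level were chosen with earlier results of these data known. All members are named, with values, and a signal below background, printed as deposited, is no measured level. A gene of another list is named where it was past 1.5 or below 0.67 at or above the median signal, and genes of these lists below that signal, or past no threshold, were named after their values were seen. A ratio was the paddy rice signal over the corn signal, with no further scaling. A fold against a signal below background was computed against the background level of that array. Such a fold holds no error of the signal and is no lower limit of a difference. No difference between diets was tested. Alternatives were filters on low signals, median, quantile and loess (fraction 0.3) centring, an added offset of 32.1 (the 25th percentile of signals), the median over probe sets, omission of shared probe sets, current symbols only, and other thresholds. The calls were checked on simulated data. Tables were made with pandas 2.3.3 and numpy 2.4.6, loess and trimmed means with statsmodels 0.14.6 and scipy 1.17.1, and plots with matplotlib 3.10.9, all in Python 3.11.15.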

Additional observations from a re-analysis of the deposited data

How the results depend on the processing

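No paired analysis was possible because there is 1 array per diet, and no array could be left out for the same reason. The median log2 ratio of the T and NK cell genes lay between -0.061 and 0.030 over 12 settings. It changed sign only without shared probe sets (0.030, 12 of 26 genes below 1), which drops CD3D, CD28, ZAP70, ARHGDIB, IL2RG, LCK and LOC395551. The count above 1.5 was 2. It was 1 with the offset of 32.1, 0 at or above the median signal, from the 75th percentile upwards and above background on both arrays (a filter chosen after seeing the data), 6 with the lower of the other thresholds tried and 1 with a threshold of 2. The count below 0.67 was 1. It was 2 with the median over probe sets, 6 with a threshold of 0.8, and 0 with the offset, with a threshold of 0.5 and with each filter on low signals. From the 75th percentile upwards, 36 of all 5782 genes were above 1.5 and 19 below 0.67. No share of all named genes was computed at the other thresholds, with the offset, with the median over probe sets or without shared probe sets. Counts under these settings are therefore no result about the members. Genes below 1 numbered 19 of 33, 23 with the median over probe sets, 12 of 22 at or above the median signal and 7 of 12 from the 75th percentile upwards. Of single genes, IL2RA was at 2.38 and CTLA4 at 1.31 with the offset, IFNG at 0.706 with it and 0.309 as a median over both probe sets, and CCR9 at 0.379 as such a median, against 1.48 on its brightest. The median, quantile and loess settings left all 33 ratios within the probe set SD of the main ones. Differences smaller than that SD could not be resolved. Larger ones are not thereby resolved, since that SD holds no spread between birds and there is 1 array per diet. Below background no level was measured.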

Other observations

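The annotation also holds 2 symbols of T cell receptor chains, which were looked up after the values of the members were known. TARP, the gene of the gamma chain locus, measured 3230.0 with corn and 3093 with paddy rice on its brightest (ratio 0.958). Of its 19 probe sets, 14 were at or above background, 9 of these with ratios below 1. The ratios of the 14 ran from 0.359 to 1.20. TRBV6-5, named for a variable segment of the beta chain, was at 982 with corn and 957 with paddy rice (ratio 0.975) on 1 probe set marked as shared. Probes for receptor segments can be shared between related sequences, so both values are uncertain.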
